A study of Mus musculus with 6 samples.

Results

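Members of a miRNA cluster on the mouse X chromosome were followed in C2C12 cells, an established mouse myoblast line, with and without TGF-beta. The cluster consists of 5 hairpins, Mir532, Mir188, Mir362, Mir501 and Mir500, that lie in an intron of the gene Clcn5. The members are 9 of the 1065 names in the deposited miRNA table, listed as mmu-miR-532-5p, mmu-miR-532-3p, mmu-miR-188-5p, mmu-miR-362-5p, mmu-miR-362-3p, mmu-miR-501-5p, mmu-miR-501-3p, mmu-miR-500-5p and mmu-miR-500-3p. The species prefix is left out from here on. They were taken by the position of their hairpins, but the cluster was singled out after miR-188-5p and miR-532-5p had been seen to be lower with TGF-beta in these same libraries. Differences between TGF-beta and control libraries are therefore given as a description and support nothing beyond these libraries. The other arm of the Mir188 hairpin, miR-188-3p, is also in the table and is not a member. There were 6 small RNA libraries of C2C12 cells, 3 labelled control and 3 labelled TGF-beta (the treated libraries). The labels give no dose, duration, vehicle or isoform of TGF-beta and no genotype other than the cell line. No label states separate cultures for the replicates, so the spread between libraries may be partly technical. C2C12 is a single established line, and the RNA came from whole cultures, so fewer cells of a kind and less RNA per cell cannot be told apart.

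A miRNA hairpin is cut from a longer transcript by Drosha and then by Dicer, and the 5p or the 3p arm of the remaining duplex is loaded into an Argonaute protein. Bases 2 to 8 of the loaded arm form the seed, which pairs with target mRNAs and largely decides which are held down. Clcn5 encodes an endosomal chloride and proton exchanger best known from the kidney proximal tubule, where its loss causes Dent disease in humans. Hairpins in an intron can be made from the host transcript or from a promoter of their own. In the mouse, miR-501 has been described in activated muscle stem cells and in newly formed muscle fibres, and miR-188 in the choice of bone marrow stromal cells between bone and fat. TGF-beta holds back the differentiation of myoblasts, and the series asks which myoblast miRNAs respond to it and names muscle fibrosis as the setting.

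In GENCODE M21 on GRCm38, which is not the mm9 build named in the submitters' processing notes, Clcn5 runs on the minus strand at chrX:7153810-7319358. All 5 hairpins are on the same strand, inside an intron of 103648 bases at chrX:7213011-7316658 that is shared by 3 of the 5 annotated Clcn5 transcripts. The other 2 transcripts start downstream of the hairpins and do not hold them. Along transcription Mir532 comes first, at chrX:7248402-7248497, and Mir188 follows after 345 bases, at chrX:7247989-7248056. A gap of 5942 bases separates this pair from Mir362, at chrX:7241982-7242046. Mir501, at chrX:7241243-7241351, lies 630 bases further on, and Mir500, at chrX:7237683-7237774, after another 3468 bases. The whole cluster spans 10.8 kb.

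The mature arms are shown because their seeds tie members of different hairpins together. They are RefSeq sequences on GRCm38.p6, 8 of the 9 names were matched by name, and capitals mark the seed. The name without a match was miR-532-5p, so its seed was not compared.
miR-188-5p: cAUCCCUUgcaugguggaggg
miR-532-3p: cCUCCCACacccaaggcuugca
miR-362-5p: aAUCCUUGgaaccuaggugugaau
miR-500-5p: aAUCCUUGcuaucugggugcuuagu
miR-501-5p: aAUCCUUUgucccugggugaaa
miR-501-3p: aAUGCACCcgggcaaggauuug
miR-500-3p: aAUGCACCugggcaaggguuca
miR-362-3p: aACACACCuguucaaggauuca
miR-362-5p and miR-500-5p share the seed AUCCUUG, and no other of 1679 mature mouse names in the RefSeq table has it. miR-501-3p and miR-500-3p share the seed AUGCACC, again with no other name. The latter pair had the same base at 18 of 22 positions, and how reads that match several names were assigned is not given in the sources used here. miR-362-3p and miR-500-3p had the same base at 17 of 22 positions but differ in the seed. The seed of miR-188-5p is shared by miR-7061-3p and that of miR-362-3p by miR-329-3p, neither of which is listed in the table used here.

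The neighbouring hairpins Mir532 and Mir188, which hold miR-532-5p and miR-188-5p, are shown for a stretch of sequence they have in common. Capitals mark the longest run found in both.
Mir532: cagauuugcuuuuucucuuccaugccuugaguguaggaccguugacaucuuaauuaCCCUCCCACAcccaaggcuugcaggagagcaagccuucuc
Mir188: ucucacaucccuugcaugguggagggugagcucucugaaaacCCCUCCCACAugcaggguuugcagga
The run has 10 bases and covers the first 9 bases of miR-532-3p and the first 8 of miR-188-3p. Of 1005 hairpins in the RefSeq table, it was found in these 2 only. It was picked as the longest match of these 2, so its presence in both follows from the choice. Whether a run of 10 bases would be found in other hairpins by chance was not tested.

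The libraries were of similar depth, with 9273231 to 9813063 miRNA reads in control and 9015669 to 9450936 in treated libraries. Values are reads per 1000000 miRNA reads (RPM), with 1 read worth 0.102 to 0.111 RPM and no correction for length. TGF-beta replicate 3 stood apart from its group: a chi-square comparison of reads over miRNAs gave 324 and 167 per degree of freedom against its fellow libraries, and 75.1 to 121.5 for the other pairs. Of 4 skeletal muscle markers all had reads, with a summed level of 134112 to 153637 RPM in control and 100931 to 102094 RPM in treated libraries. Most of this sum was miR-206-3p, at 116789 to 132538 RPM in control and 84351 to 88322 RPM in treated libraries. The extraction text among the labels mentions retinas. Of 6 retina names miR-124-3p was not listed and the other 5 summed to 6244 to 7257 RPM in control and 5118 to 7492 RPM in treated libraries. Markers of blood, endothelium, liver and epithelium summed to at most 24.3 RPM per list in any library. The part of these lists in the results was not tested.

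The cluster covered a wide range of levels. Together the 9 members took 1.40% ± 0.063 of all miRNA reads in the control libraries (SD, n = 3 each). In the treated libraries they took 1.05% ± 0.057 (SD, n = 3), and the groups did not overlap. With the most abundant name, miR-21a-5p, left out of the total, their sum was 19204 (control) and 16255 RPM (treated), a smaller relative difference. miR-532-5p made up 80.5% to 85.2% of this sum in every library and was the 16th most abundant name of the table by its control mean and the 18th by its TGF-beta mean. miR-500-5p, the lowest member, rested on 15 to 28 reads a library, and the control mean of miR-532-5p was 5769 times as high. All members are 21 to 25 bases long where a sequence was matched, so the comparison is little affected by length, but library preparation takes up small RNAs unequally and levels of different names are levels of reads only.

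By control mean the order after miR-532-5p was miR-501-3p, miR-362-5p, miR-362-3p, miR-532-3p, miR-188-5p, miR-501-5p, miR-500-3p and miR-500-5p. From miR-532-5p down to miR-188-5p this order held in all 6 libraries, although in treated libraries the ranges of miR-362-5p and miR-362-3p and those of miR-362-3p and miR-532-3p overlapped. miR-188-5p was above miR-501-5p in 4 of 6 libraries, and miR-501-5p above miR-500-3p in 3 of 6, so neither of these neighbouring pairs differed beyond its spread. miR-188-5p and miR-500-3p, which are not neighbours in the order, did not overlap in control. The most abundant arms thus came from the first and the fourth hairpin along transcription.

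**Figure D1:**
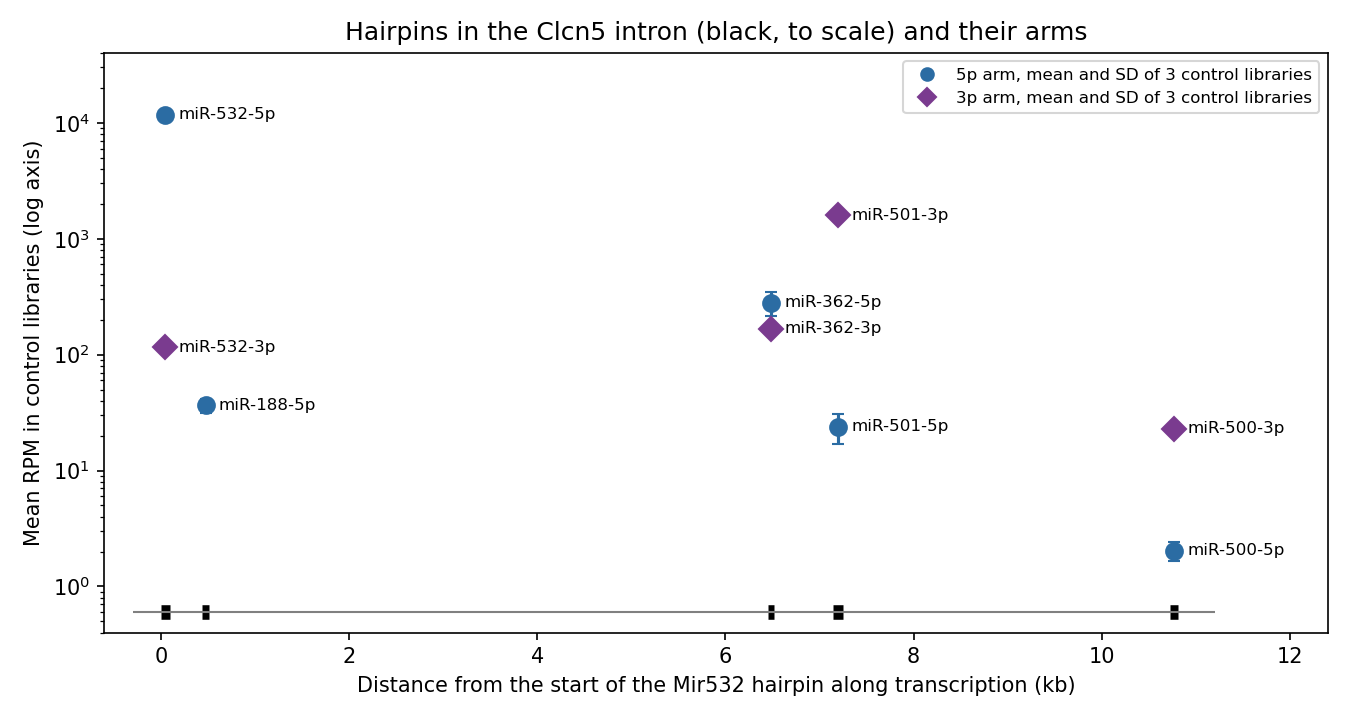
Mean RPM of each arm in the 3 control libraries (log axis, bars are SD) against the distance of its hairpin from the start of Mir532 along transcription in kb, with the hairpins in black. Mir532 and Mir188 form a pair at the left, and miR-532-5p and miR-501-3p stand far above their own other arms.

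The members that passed the limma threshold, miR-532-5p and miR-188-5p, came from Mir532 and Mir188, and they are also the names on which the cluster was singled out. miR-532-5p, which in human cells is known to act on the transcription factor RUNX3, stood at 12131, 11794 and 11353 RPM in control and at 8375, 8178 and 9527 RPM in treated libraries. Every TGF-beta library lay below every control library, and TGF-beta replicate 3 was the nearest to control. Its mean was 26.1% lower with TGF-beta, and the log2 fold change, on the log2(RPM + 1) scale used throughout, was −0.44 (SE 0.10). miR-188-5p stood at 30.6, 38.7 and 40.3 RPM in control, on 300 to 378 reads, and at 21.4, 16.8 and 20.5 RPM in treated libraries, on 159 to 199 reads. The groups did not overlap, the mean was 46.4% lower, and the log2 fold change was −0.86 (SE 0.16), the 4th lowest of 418 tested names. Its partner arm miR-188-3p was counted 1 to 3 times a library, at or under the 3 reads that a count of 0 allows, so no difference can be read for it.

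These 2 names were the members called by limma across the 418 names that reached 1 RPM in 3 or more libraries, at a Benjamini-Hochberg adjusted p under 0.05, and both were lower. All 9 members were tested. Over all names 33 of 418 (7.89%) were called, 16 lower (3.83%) and 17 higher (4.07%), and since the cluster was chosen on this comparison nothing is read from its count. The split of higher and lower calls depends on scaling and became 20 to 10 with median scaling and 25 to 7 with miR-21a-5p left out. The call of miR-188-5p ended with quantile normalization, at −0.84. That of miR-532-5p ended with quantile normalization (−0.30), without an intensity trend, with miR-21a-5p left out (−0.27), without control replicate 1 (−0.42) and without TGF-beta replicate 2 (−0.40). miR-21a-5p, the most abundant name, held 27.03% ± 1.12 (control) and 35.2% ± 1.41 (treated) of the reads, and leaving it out raised the median over all names by 0.16 on the log2 scale.

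miR-532-3p, the less abundant arm of the first hairpin and known in mouse heart muscle cells to act on an apoptosis repressor, stood at 126.5, 109 and 111 RPM in control and at 101, 98.7 and 55.1 RPM in treated libraries. The groups did not overlap, but most of the difference lay in TGF-beta replicate 3. The log2 fold change was −0.49 (SE 0.19) with all libraries and −0.20 without that replicate, and neither was called. The log2 fold changes of the 5p and 3p arms of Mir532 were thus close with all libraries, and were −0.51 and −0.20 without TGF-beta replicate 3.

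**Figure D2:**
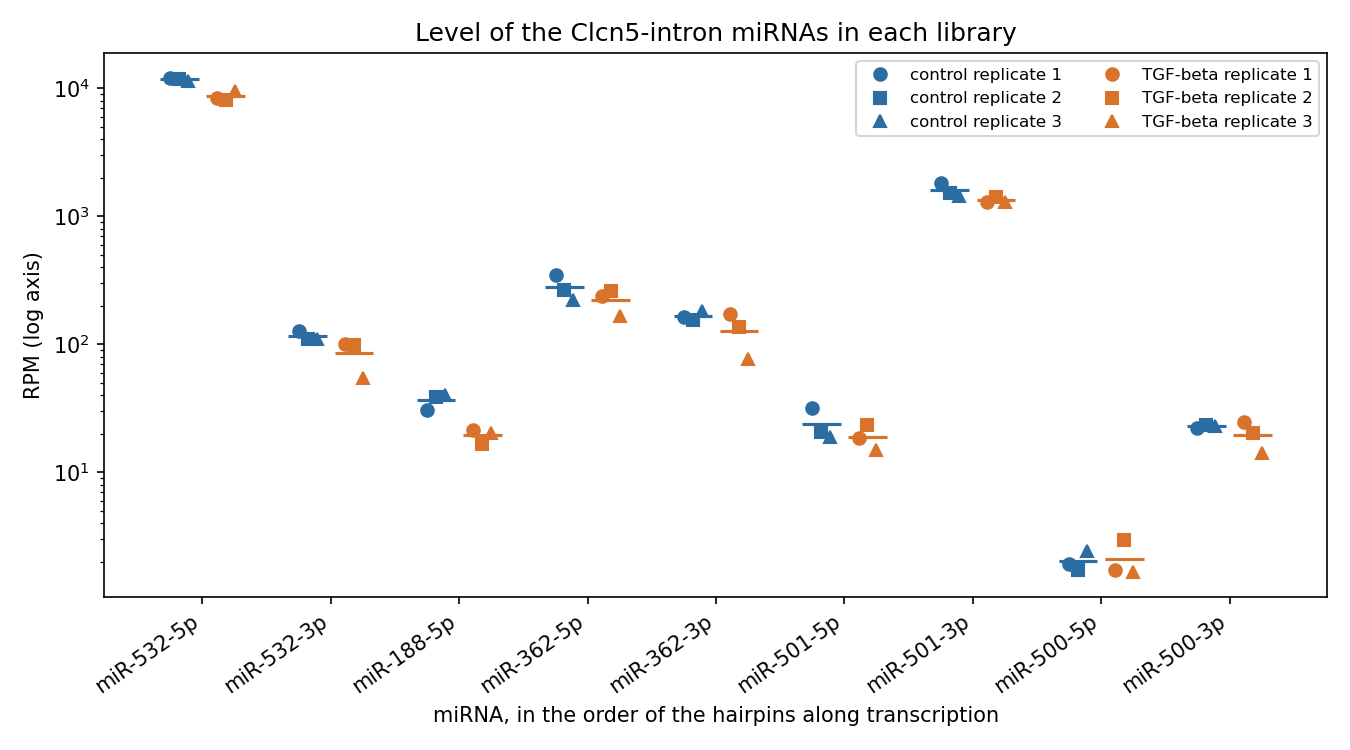
RPM of each member in each library (log axis), with control in blue, TGF-beta in orange, a symbol for each replicate number and a line at the group mean. The groups are apart for miR-532-5p, miR-532-3p, miR-188-5p and miR-501-3p, and TGF-beta replicate 3 (orange triangle) is the lowest library at 6 members.

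None of the 6 members from Mir362, Mir501 and Mir500 was called. miR-501-3p, the abundant arm of Mir501, stood at 1812, 1530.2 and 1455 RPM in control and at 1297, 1416 and 1305.5 RPM in treated libraries. These groups did not overlap, by a small margin between control replicate 3 and TGF-beta replicate 2, and the log2 fold change was −0.25 (SE 0.12). miR-501-5p stood at 31.8, 20.7 and 18.9 RPM in control and at 18.6, 23.5 and 15.0 RPM in treated libraries, with overlapping groups. Its log2 fold change of −0.30 (SE 0.20) became −0.08 without control replicate 1, the library in which both arms of Mir501 were highest, and −0.14 without TGF-beta replicate 3.

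miR-362-5p, which in human cells is known to act on the NF-kappaB regulator CYLD, stood at 352, 267 and 223.9 RPM in control and at 238, 262 and 166 RPM in treated libraries. The groups overlapped, and the log2 fold change was −0.34 (SE 0.18). miR-362-3p stood at 164, 155 and 181.7 RPM in control and at 172, 136 and 76.5 RPM in treated libraries. A single library, TGF-beta replicate 3, lay far below the rest, and the log2 fold change of −0.45 (SE 0.21) became −0.12 without it. Without TGF-beta replicate 1 instead, miR-362-3p was called, at −0.70, on a comparison in which the low library is 1 of 2 treated.

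miR-500-3p, which has the seed of miR-501-3p, stood at 22.2, 23.5 and 23.0 RPM in control and at 24.7, 20.2 and 14.2 RPM in treated libraries. The groups overlapped, TGF-beta replicate 1 was above all control libraries, and the log2 fold change of −0.24 (SE 0.18) became −0.03 without TGF-beta replicate 3. miR-500-5p stood at 1.94, 1.73 and 2.45 RPM in control and at 1.72, 2.96 and 1.66 RPM in treated libraries, where no difference was detectable at this depth. Its log2 fold change was 0.02 (SE 0.24) and turned negative without TGF-beta replicate 2 and without either of control replicates 1 and 2.

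**Figure D3:**
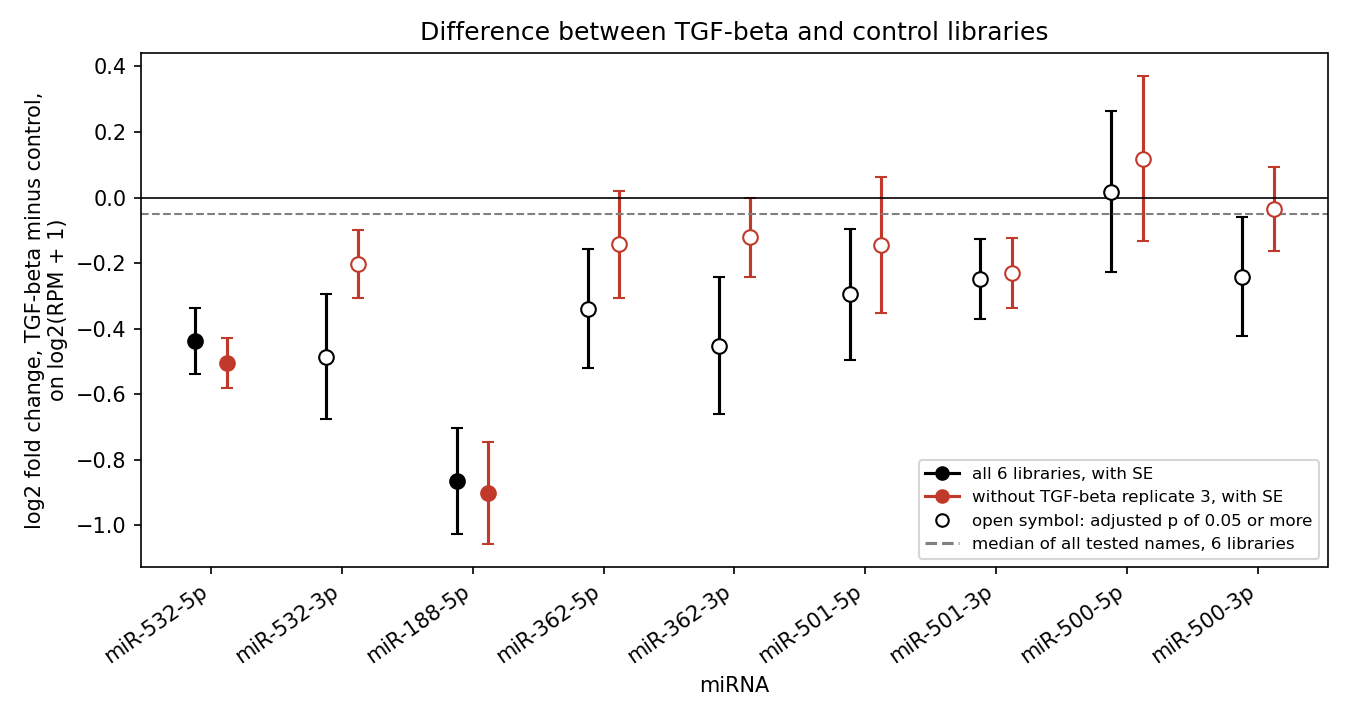
Log2 fold change of each member between TGF-beta and control libraries on log2(RPM + 1), with SE, for all 6 libraries (black) and without TGF-beta replicate 3 (red), with filled symbols for names called by limma. miR-188-5p and miR-532-5p are filled and keep their place without that library, while miR-532-3p, miR-362-3p, miR-362-5p, miR-501-5p and miR-500-3p move toward 0.

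Across the members, 8 of 9 log2 fold changes were below 0, against 249 of 418 tested names (59.6%), and without TGF-beta replicate 3 again 8 of 9, against 221 of 404 (54.7%). The groups did not overlap at 4 members, all lower with TGF-beta, against 51 of 418 names lower (12.2%) and 38 of 418 higher (9.09%). The 9 members had a median log2 fold change of −0.34, and all tested names had one of −0.05. Without TGF-beta replicate 3 the median of the members was −0.14 and that of all names −0.03, and with miR-21a-5p left out they were −0.17 and 0.11. Without TGF-beta replicate 3 the called members were still 2, miR-188-5p at −0.90 and miR-532-5p at −0.51, against 15 of 404 names lower (3.71%). Arms of a hairpin and names with shared seeds come from the same transcript or could share reads, so the members are not independent of each other.

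TGF-beta replicate 3 was the lowest library of its group at 6 of 9 members, namely miR-532-3p, miR-362-5p, miR-362-3p, miR-501-5p, miR-500-5p and miR-500-3p, and it was the lowest at 43.5% of all tested names. Against the mean of its group it stood at −0.66 on the log2 scale at miR-362-3p, −0.57 at miR-532-3p, −0.41 at miR-500-3p and −0.39 at miR-362-5p, all below the 10th percentile of all names in that library, −0.37. At miR-532-5p the same library was the highest of its group, at 0.14. In control replicate 1 another set stood high, with miR-501-5p at 0.44, miR-362-5p at 0.35 and miR-501-3p at 0.19 above the control mean. There miR-188-5p stood at −0.24. The 10th and 90th percentiles of all names in that library were −0.23 and 0.22, so miR-501-3p lay between them and miR-188-5p just outside. Control replicate 1 was the highest of its group at 5 of 9 members and at 36.4% of all tested names. Names from a single intron thus did not all move together from library to library within a group.

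**Figure D4:**
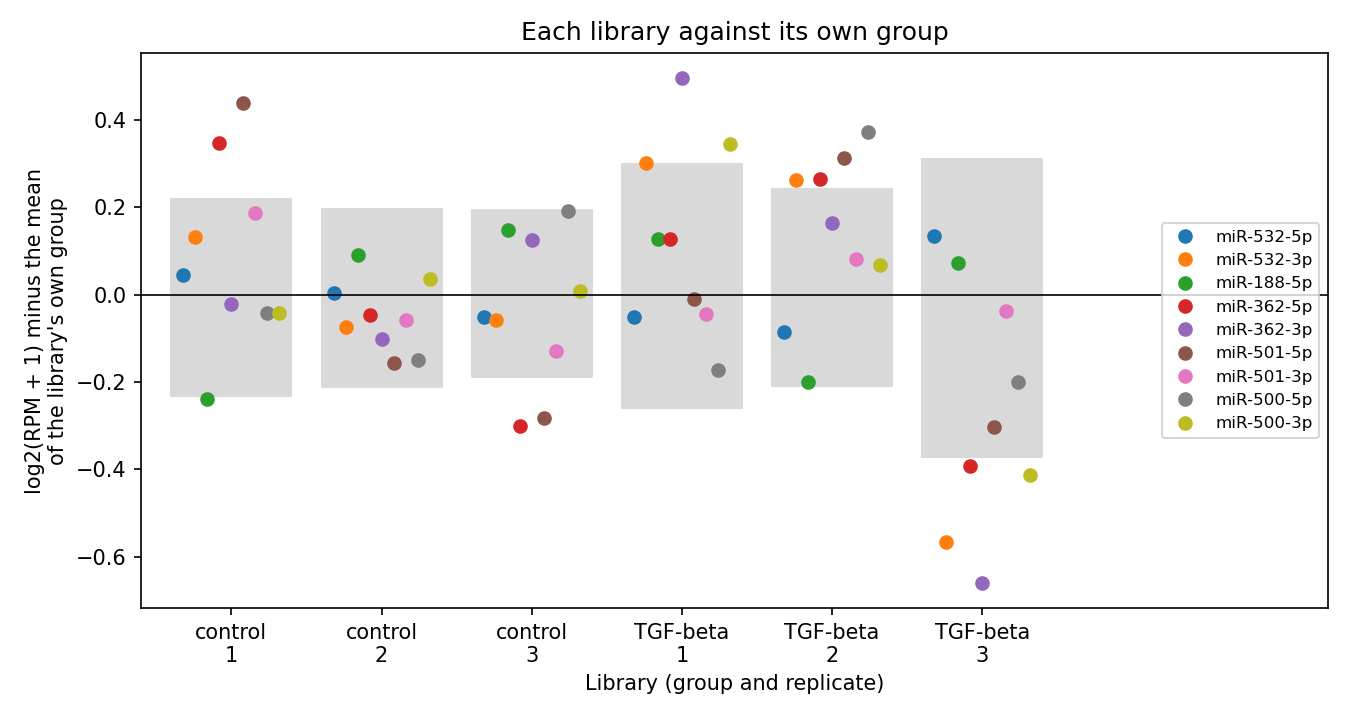
Log2(RPM + 1) of each member minus the mean of the library's own group, by library, with the range from the 10th to the 90th percentile of all 418 tested names in grey. In TGF-beta replicate 3, 4 members lie below the grey range, while miR-532-5p and miR-188-5p lie above 0.

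The arms of the hairpins had unequal reads, and the arm with more reads, called favoured here, was the same in all 6 libraries. Arm use cannot be told apart here from unequal uptake in library preparation. The 5p arm was favoured at miR-532, by 82.5 to 173 times in RPM, and at miR-362, by only 1.23 to 2.17 times. The 3p arm was favoured at miR-501, by 57.0 to 87.2 times, and at miR-500, by 6.82 to 14.4 times. Mir501 and Mir500 thus favoured the same arm, the one with the seed AUGCACC, and this seed was carried by 1622 ± 187.6 RPM in control and 1360 ± 66.8 RPM in treated libraries (SD, n = 3 each). At miR-188 a ratio would rest on 1 to 3 reads of the 3p arm and is not given.

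Whether the arms of a hairpin differed in their change was examined for the 3 of 5 hairpins whose arms each averaged 10 RPM or more. The log2 ratio of 5p to 3p of miR-532 was 6.66 ± 0.08 in control and 6.71 ± 0.61 in treated libraries (SD, n = 3 each). The large spread came from TGF-beta replicate 3 at 7.41, above all control libraries, while the other 2 treated libraries, at 6.35 and 6.36, were below all of them. The difference was 0.05 (SE 0.30) with all libraries and −0.30 (SE 0.09) without that replicate. The ratio of miR-362 was 0.73 ± 0.40 in control and 0.84 ± 0.33 in treated libraries, and that of miR-501 was −6.04 ± 0.22 and −6.09 ± 0.25, with overlapping groups at both. None of the 3 was called by limma, nor was any of the 52 hairpins tested (0%), of which 6 had an unadjusted p under 0.05. The ratio of miR-500, below the level for the comparison, was −2.98 ± 0.18 and −2.72 ± 0.45. It depends on the 1 RPM added to each arm. With 0.5 RPM added it was −3.22 in control and −2.95 in treated libraries, and with 5 RPM −1.99 and −1.78.

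**Figure D5:**
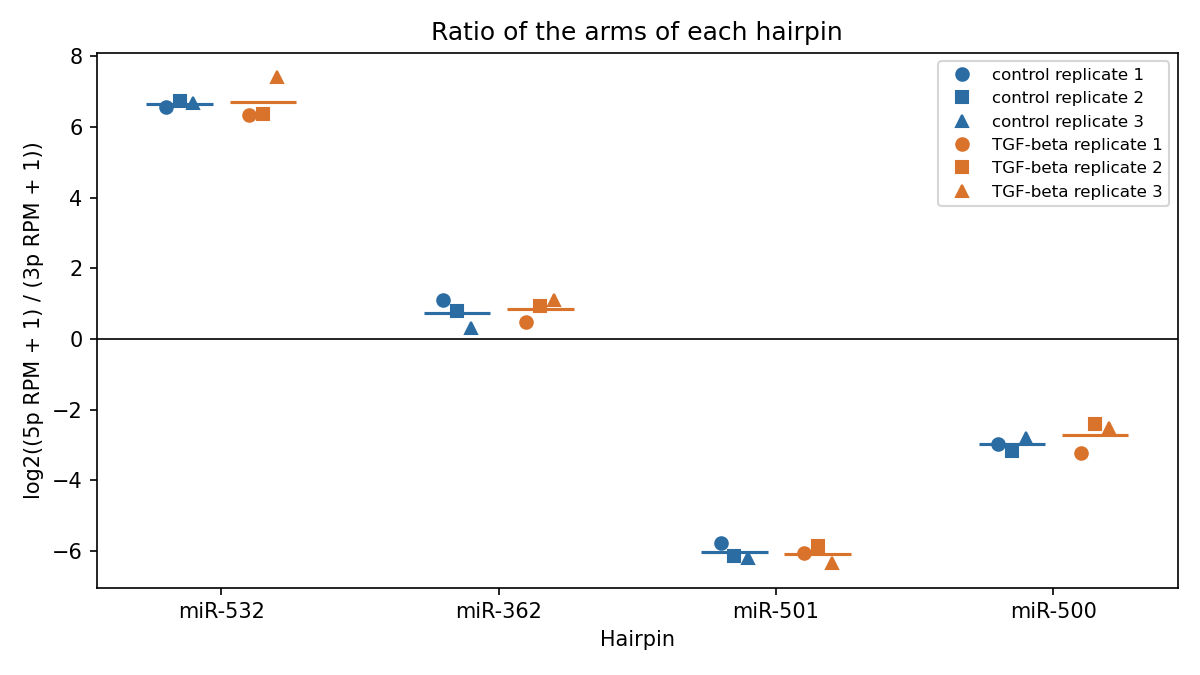
Log2 of 5p over 3p RPM for 4 hairpins in each library, with control in blue, TGF-beta in orange and a line at the group mean. miR-532 and miR-362 lie above 0 and miR-501 and miR-500 below it in all 6 libraries, and TGF-beta replicate 3 stands above the other libraries at miR-532.

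Other miRNAs of the X chromosome were set beside the cluster. Outside it 89 X-linked names were listed, and 39 of them were tested. Of these, 1 was called lower, miR-503-5p, a miRNA known to hold back the cell cycle, at 45.8 ± 3.36 RPM in control and 28.3 ± 6.70 RPM with treatment (SD, n = 3 each) and a log2 fold change of −0.70 (SE 0.17). Another was called higher, miR-92a-3p, at 0.82 (SE 0.13). It is 1 of 3 tested X-linked names that also have a hairpin outside the X chromosome. Over all 418 tested names 16 were called lower (3.83%) and 17 higher (4.07%). The 39 X-linked names had a median of −0.06, against −0.05 for all tested names. Of the 39, 25 were below 0, against 249 of 418 (59.6%). The groups did not overlap at 4 of the 39 in the lower direction, against 51 of 418 (12.2%). In the higher direction they did not overlap at 2, against 38 of 418 (9.09%).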

How the data were processed

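Small RNA reads of 6 C2C12 libraries, 3 control and 3 TGF-beta, were analysed from 1 deposited table. The authors headed their values TPM, but each library sums to 1000000 without length correction, so they are RPM. The submitters' processing notes name mm9 as the build. The aligner, the counter and the miRNA annotation are not stated in the labels. The authors' deposited group means in RPM and their unadjusted p-value were not used. All values (100%) were whole multiples of 1 read to within 0.01 read, and the recovered reads served the count tests with edgeR 4.0.16 (29 names called) and DESeq2 1.42.0 (31 names).

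The 418 names that reached 1 RPM in 3 or more libraries were compared on log2(RPM + 1) with limma 3.58.1 (trend on intensity, R 4.3.3). This scale understates changes of low names. P-values were two-sided and adjusted by Benjamini-Hochberg over all 418 names, with 0.05 as the threshold. Arm ratios were compared likewise on log2((5p + 1)/(3p + 1)) over 52 hairpins. The floor of 3 reads covers counting error only, while each SD rests on the spread between libraries. Each SE comes from that spread after limma drew it toward the trend over all fitted names or hairpins. For miR-532-5p the SE was 0.10 with the intensity trend and 0.13 without it. All 9 members are named, with the names most like miR-188-5p and miR-532-5p and the called X-linked names. X-linked names were found by matching 865 of 1065 names to RefSeq on GRCm38.p6. Fits were tested on simulated data. The simulation had no outlying library and set no change at miR-21a-5p or miR-532-5p, so it does not bear on those points. Members and lists were chosen with earlier results of these data known. Alternatives were other pseudocounts, filters, scalings and tests, each library left out, and the replicate number as a block.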

Additional observations from a re-analysis of the deposited data

How the results depend on the processing

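The log2 fold change of miR-188-5p kept its sign in all 17 alternatives, from −0.98 to −0.71, and its call in 16 of them. That of miR-532-5p kept its sign in 17, from −0.51 to −0.27, and its call in 12. The other members were called in none, apart from miR-362-3p without TGF-beta replicate 1. The number of called names, 33, became 19 without a filter and with a mean of at least 10 RPM, 16 without an intensity trend and 10 with quantile normalization. With single libraries left out it ran from 17 (without TGF-beta replicate 2) to 36, and was 18 without control replicate 1. For these counts the cause was not tested. With single libraries left out the log2 fold change of miR-500-5p ran from −0.17 to 0.12, and the arm differences from −0.30 to 0.22 for miR-532, from −0.10 to 0.30 for miR-362 and from −0.16 to 0.088 for miR-501. With miR-21a-5p left out the summed level of the 9 members was 19204 (control) and 16255 RPM (treated), against 14007 and 10529 RPM. The same reads are then divided by a smaller total. That total loses more in treated libraries, where miR-21a-5p held 35.2% of reads against 27.03% in control. The relative difference between the groups was smaller too, and the log2 fold change of miR-532-5p went from −0.44 to −0.27. The number of called hairpins was 0 in every alternative. With the replicate number as a block, 32 names were called. Deviations of same-numbered libraries from their group means correlated at −0.08, −0.07 and −0.08 across names. Pairs of unlike number correlated at 0.007 to 0.075. Deviations within a group cancel out, so these correlations are not independent of each other. No strong deviation shared by number was thus seen, but whether same-numbered libraries were prepared together cannot be told from this. miR-500-5p and miR-188-3p are limited by depth, with at most 28 and 3 reads a library.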

Other observations

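The names whose levels followed miR-188-5p most closely over the 6 libraries, outside the cluster, were miR-218-5p, miR-378a-3p and miR-6516-5p, with a Pearson correlation of log2(RPM + 1) of 0.98, 0.98 and 0.97 and a Spearman correlation of 0.94, 1 and 0.94. miR-218-5p fell from a mean of 516 to 321.99 RPM and miR-378a-3p, hosted by the metabolic gene Ppargc1b, from 39307 to 29463 RPM, and both were called by limma. miR-6516-5p had means of 4.51 RPM (control) and 2.74 RPM (treated) and was not called. For miR-532-5p the closest names were miR-615-3p, miR-335-3p and miR-130a-5p, with a Pearson correlation of 0.97, 0.97 and 0.95 and a Spearman correlation of 0.89, 0.89 and 0.71. miR-615-3p stood at 516 and 443 RPM, miR-335-3p at 3.67 and 1.08 RPM and miR-130a-5p at 5.17 and 3.68 RPM. Of these miR-335-3p was called, with a treated mean close to the 1 RPM of the filter. Within groups the Pearson correlations, in the same order of names, were 0.93, 0.85 and 0.80 for miR-188-5p. For miR-532-5p they were 0.95, 0.68 and 0.60. These correlations are descriptions without a test, since the libraries fall into 2 groups that share the treatment and the names share the library totals. The names were also picked for the highest Pearson correlation over these same 6 libraries. High values within groups therefore follow in part from that choice.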
